A study of Mus musculus with 16 samples.

Results

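The genes described here are 8 genes of the red blood cell, measured in the mouse heart: the adult alpha globin genes Hba-a1 (Entrez 15122) and Hba-a2 (Entrez 110257), the adult beta globin genes Hbb-bs (Entrez 100503605) and Hbb-bt (Entrez 101488143), and Alas2 (Entrez 11656), Slc4a1 (Entrez 20533), Bpgm (Entrez 12183) and Fech (Entrez 14151). They were found by symbol among the 18346 genes of the count table, and all 8 were listed. Bulk RNA sequencing covered 16 dissected, frozen hearts, 4 in each of 4 groups: wild-type mice (WT) and mice with a systemic knockout of Armh4 (KO), at 8 weeks (young) and at 25 months (aged). The series text names C57BL/6J for the mice and describes the hearts within a group as independent biological replicates. Hearts are named by group and animal number. The sources used here do not say whether blood was flushed from the hearts.

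Haemoglobin is a tetramer of alpha and beta globin chains, each holding a haem group, and carries oxygen in red blood cells. Mouse red cells lose their nucleus, and circulating cells, above all the youngest, keep some globin messenger RNA. Adult globin transcripts are commonly found in RNA of organs that hold blood. Haem is built from glycine and succinyl-CoA: ALAS2 is the erythroid enzyme of the first step, and FECH, which inserts iron in the last step, works in nearly every cell. SLC4A1 (band 3) is the main anion exchanger of the red cell membrane, and BPGM makes bisphosphoglycerate, which lowers the oxygen affinity of haemoglobin.

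The sequences before the start sites are shown for what the members share and where the copies differ outside the transcript. Of the 8 genes, 6 had an entry in the RefSeq promoter table (build GRCm38.p6), and the 250 bases before the start are printed 5′ to 3′ on the gene's strand for the globin copies, Alas2 and Bpgm. The stretches are chr11:32283422-32283671 (plus strand) for Hba-a1, chr11:32296242-32296491 (plus) for Hba-a2, chr7:103827929-103828178 (minus) for Hbb-bs, chr7:103813924-103814173 (minus) for Hbb-bt, chrX:150547167-150547416 (plus) for Alas2 and chr6:34476106-34476355 (plus) for Bpgm. Capitals mark matches, on either strand, to AGATAA (letters bound by GATA factors), CCACACCC (bound by KLF1), CCAAT and TATAAA.
Hba-a1: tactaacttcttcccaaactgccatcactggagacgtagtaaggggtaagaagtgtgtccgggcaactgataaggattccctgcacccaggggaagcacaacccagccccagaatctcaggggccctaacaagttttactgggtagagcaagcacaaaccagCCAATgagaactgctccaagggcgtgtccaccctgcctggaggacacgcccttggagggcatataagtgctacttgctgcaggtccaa
Hba-a2: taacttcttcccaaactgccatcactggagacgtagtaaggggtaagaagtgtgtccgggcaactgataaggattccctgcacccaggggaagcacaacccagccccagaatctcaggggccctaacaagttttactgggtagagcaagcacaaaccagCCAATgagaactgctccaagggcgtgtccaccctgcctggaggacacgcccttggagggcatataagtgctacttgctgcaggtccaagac
Hbb-bs: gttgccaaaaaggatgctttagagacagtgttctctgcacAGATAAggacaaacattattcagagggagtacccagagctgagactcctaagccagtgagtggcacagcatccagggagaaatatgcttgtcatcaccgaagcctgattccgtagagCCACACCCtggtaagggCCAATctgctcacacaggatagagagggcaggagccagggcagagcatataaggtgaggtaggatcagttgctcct
Hbb-bt: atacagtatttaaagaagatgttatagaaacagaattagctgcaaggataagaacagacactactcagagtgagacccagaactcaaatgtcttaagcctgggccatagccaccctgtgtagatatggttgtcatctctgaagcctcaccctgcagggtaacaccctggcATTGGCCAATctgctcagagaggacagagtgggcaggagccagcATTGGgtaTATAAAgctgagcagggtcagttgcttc
Alas2: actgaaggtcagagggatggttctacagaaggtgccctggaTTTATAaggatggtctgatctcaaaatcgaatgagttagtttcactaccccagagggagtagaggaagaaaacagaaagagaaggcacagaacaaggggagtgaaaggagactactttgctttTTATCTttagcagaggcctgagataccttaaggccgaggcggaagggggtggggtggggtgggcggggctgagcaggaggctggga
Bpgm: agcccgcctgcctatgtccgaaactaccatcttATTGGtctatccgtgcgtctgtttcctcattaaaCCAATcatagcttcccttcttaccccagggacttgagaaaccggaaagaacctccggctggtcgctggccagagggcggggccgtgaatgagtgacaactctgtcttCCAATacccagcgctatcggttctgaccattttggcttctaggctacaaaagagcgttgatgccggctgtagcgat

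The alpha globin stretches were the same sequence set off by 3 bases: 247 of 247 aligned bases were identical. The beta globin stretches, aligned without gaps, matched at 127 of 249 bases (51.0%). Hbb-bs held AGATAA from 210 to 205 bases before the start and CCACACCC from 93 to 86 bases before it, and Hbb-bt held neither. Alas2 held AGATAA on the minus strand from 86 to 81 bases before its start. CCAAT stood between 91 and 71 bases before the start in all 4 globin copies, and Bpgm held 3 CCAAT matches, 2 of them forward and 1 on the minus strand. Hbb-bt also held CCAAT on the minus strand in 2 places, and TATAAA from 28 to 23 bases before the start; Alas2 held TATAAA on the minus strand. Only these exact letters were searched, so a missing match says nothing about variants of them. Both alpha globin stretches hold tgataa, for example, which differs from AGATAA in its first letter and was not marked. The letters searched are not rare. Over 32851 promoter stretches of the same length, 9.99% held AGATAA, 3.20% held CCACACCC, 33.9% held CCAAT and 12.4% held TATAAA on either strand, so a match describes the sequence and is no evidence of a bound site.

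The coding sequences of the copies were nearly the same. In the GENCODE M21 transcripts, the longest open reading frames of Hba-a1 and Hba-a2 differed at 1 of 429 bases, and those of Hbb-bs and Hbb-bt at 1 of 444. All 4 copies had counts that were not whole numbers in all 16 hearts, against 6 hearts for Alas2 and none for Slc4a1, Bpgm and Fech. The sources used here do not say how reads were shared between copies, so the split between copies is uncertain, and Hba-a1 and Hba-a2 were summed (alpha globin), as were Hbb-bs and Hbb-bt (beta globin). This leaves 6 values per heart for testing.

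Depth was even, at 11456503 to 13298660 counts per heart. Armh4, the targeted gene, had 1 to 22 counts in KO hearts and 158 to 254 in WT hearts, with no overlap. All 8 cardiomyocyte markers examined were present in every group, at a summed 66173 to 93702 CPM (counts scaled to library size). Of 13371 genes tested, 6 of the 6 values described here passed the filter on low counts; Slc4a1 did so on 3 to 27 counts per heart. Genes are said to have risen or fallen where the adjusted p of edgeR's quasi-likelihood test (Benjamini-Hochberg over all genes tested) was under 0.05.

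Globin transcripts were a small part of every library and the largest part in aged WT hearts. The 4 copies together took 0.0484% to 0.0705% of the counts in young WT hearts, 0.1035% to 0.2254% in aged WT hearts, 0.0609% to 0.1002% in young KO hearts and 0.0931% to 0.1814% in aged KO hearts. The Wilson 95% interval of a single heart was narrow, for example 0.0913% to 0.0948% around 0.0931% in KO_Aged_115, and covers counting error only. The range over the hearts of each group was thus far wider than counting error. Single pairs could lie within it, as KO_Aged_115 and KO_Aged_122 did (0.0931% and 0.0933%).

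In deposited FPKM, which divides by gene length and allows levels of different genes to be compared, the order in young WT hearts was Hbb-bs, Hba-a1, Hba-a2, Hbb-bt, Fech, Bpgm, Alas2 and Slc4a1. The mean levels were 693 ± 131 FPKM for Hbb-bs, 585 ± 105 for Hba-a1, 389 ± 52.98 for Hba-a2 and 124.6 ± 26.3 for Hbb-bt (SD, n = 4). Fech stood at 68.1 ± 7.10 FPKM, Bpgm at 17.3 ± 2.13, Alas2 at 6.26 ± 1.40 and Slc4a1 at 0.06 in each of the 4 hearts (SD, n = 4). Hbb-bs and Hba-a1 overlapped in range, and every other neighbouring pair was separate. The order of the single copies depends on the split of reads between them, which is uncertain. In aged WT hearts the order of the 4 copies was the same, at means of 2188, 1525, 941 and 452 FPKM, but each neighbouring pair of copies overlapped. Alas2 rose to 18.5 ± 5.76 FPKM there, a range of 9.93 to 21.9 that overlapped that of Bpgm (lowest 20.4). The summed beta copies stood at 2640 ± 948 FPKM and the summed alpha copies at 2467 ± 594 FPKM in aged WT hearts, against 818 ± 157 and 974.6 ± 157 in young WT hearts (SD, n = 4).

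The first comparison asks what changed with age in WT hearts. Both globin sums, Alas2, Slc4a1 and Bpgm rose, and Fech gave no call. Alpha globin went up 2.41-fold, beta globin 3.08-fold, Alas2 2.83-fold and Bpgm 1.32-fold in the fit. In bulk tissue more cells of a type and more RNA per cell cannot be told apart, so these are changes in the share of heart RNA. Of the 6 values, 5 were called as higher in aged hearts, against 11.9% of all genes tested. Slc4a1, 1 of the 5, entered the test on very few counts, and without it the count was 4, as under a filter of 1 CPM in 4 libraries and in a fit of the WT hearts alone. In the same 5 every aged heart stood above every young heart, as in 12% of all genes.

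Alpha globin stood at 332, 261, 256 and 311 CPM in the young WT hearts 29, 34, 39 and 42, and at 815, 467, 823 and 690 CPM in WT_Aged_1, WT_Aged_4, WT_Aged_5 and WT_Aged_12. The groups did not overlap, and WT_Aged_4 was the lowest aged heart. The log2 change was 1.27 ± 0.22 (SE), with an edgeR adjusted p of 0.000429. Beta globin, in the same order, stood at 370, 279, 262 and 320 CPM in young and 1359, 537, 989 and 898 CPM in aged WT hearts. WT_Aged_1 was highest and WT_Aged_4 again lowest, still above every young heart. The log2 change was 1.62 ± 0.25 (SE; edgeR adjusted p 0.000142). Fitted one at a time, the copies gave log2 changes of 1.31 ± 0.23 for Hba-a1, 1.20 ± 0.21 for Hba-a2, 1.59 ± 0.25 for Hbb-bs and 1.79 ± 0.27 for Hbb-bt (SE).

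**Figure D1:**
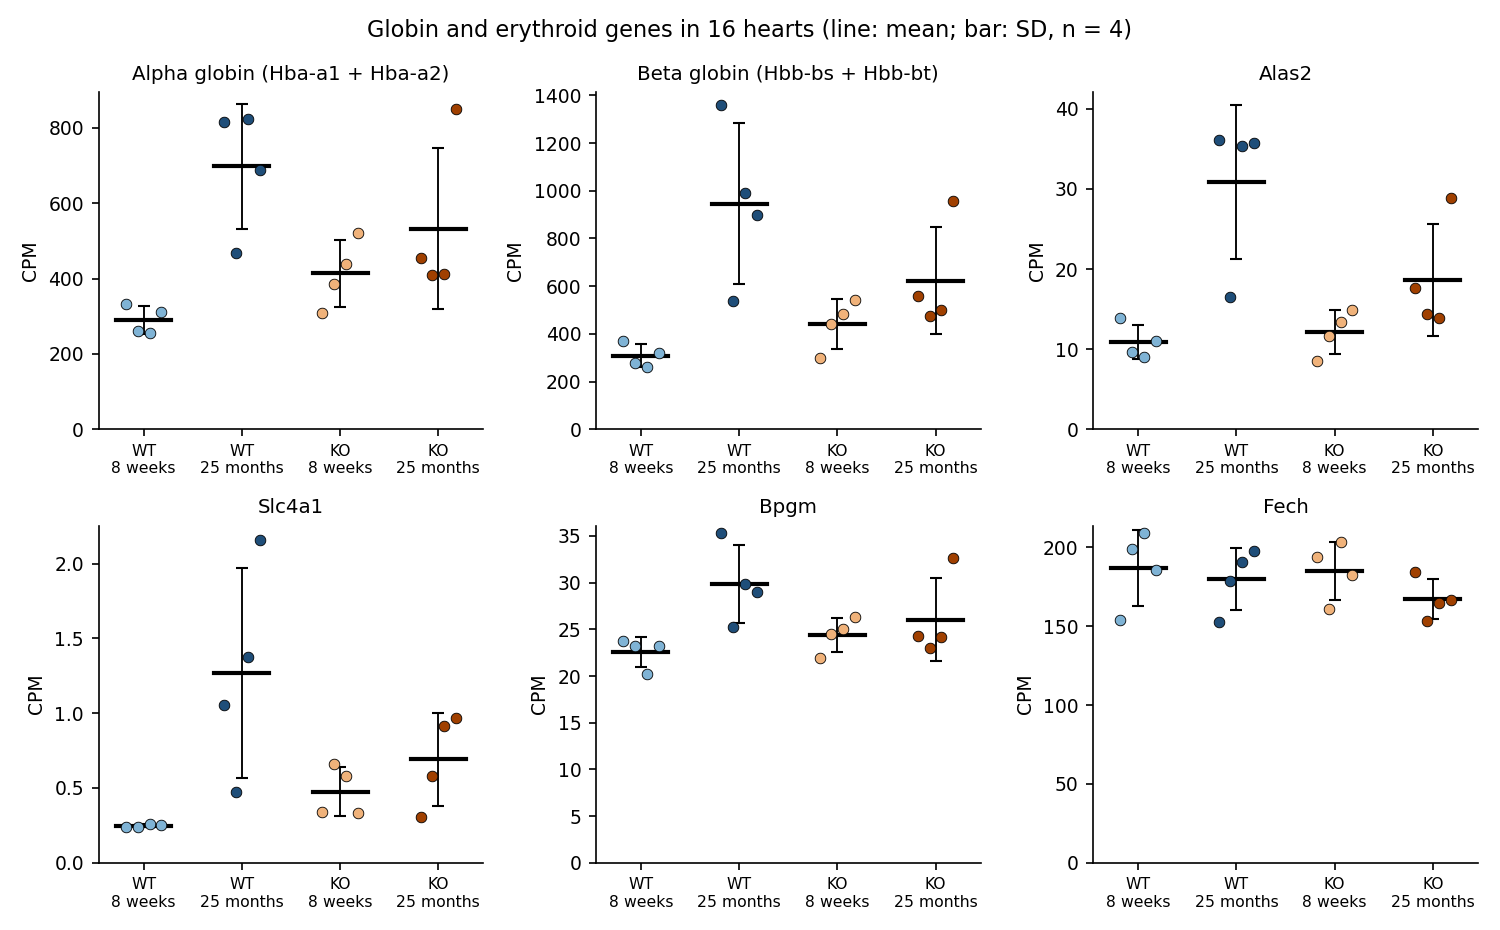
CPM of the alpha and beta globin sums, Alas2, Slc4a1, Bpgm and Fech in each of 16 hearts (points, in 4 groups of genotype and age), with group mean (line) and SD (bar). Aged WT hearts lie above young WT hearts in every panel but Fech, and KO_Aged_125 is the single high point of the aged KO hearts for both globins, Alas2 and Bpgm.

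Of the haem enzymes, Alas2 followed the globins and Fech did not. Alas2 stood at 13.8, 9.65, 9.04 and 11.1 CPM in young WT hearts and at 36.1, 16.5, 35.3 and 35.7 CPM in aged WT hearts. The 3 high aged hearts were within 1 CPM of each other, and WT_Aged_4 lay less than 3 CPM above the highest young heart. The log2 change was 1.50 ± 0.25 (SE; edgeR adjusted p 0.000332). Fech stood at 154, 199, 209 and 185 CPM in young and 153, 179, 191 and 198 CPM in aged WT hearts. The groups overlapped almost fully, at a log2 difference of -0.06 with a 95% interval of -0.27 to 0.16 (edgeR adjusted p 0.740).

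Slc4a1, the membrane anion exchanger, was at the edge of detection. It had 3 counts in each of the 4 young WT hearts and 13, 6, 18 and 27 counts in the aged ones. All aged hearts were higher. The summed counts of 64 and 12 give a ratio of 5.35 per library total, with an exact 95% interval of 2.86 to 10.9 that covers counting error only, and the edgeR log2 change was 2.31 ± 0.49 (SE; adjusted p 0.00211). A gene this low passed the filter through the groups where it was higher, which favours a difference.

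Bpgm, the enzyme of bisphosphoglycerate synthesis, moved least of the called values. It stood at 23.7, 23.2, 20.2 and 23.2 CPM in young WT hearts and 35.4, 25.2, 29.9 and 29.03 CPM in aged WT hearts. The groups were separate, with WT_Young_39 the lowest young and WT_Aged_4 the lowest aged heart. The log2 change was 0.40 ± 0.12 (SE; edgeR adjusted p 0.0179). Without WT_Young_39 it was 0.36 and no longer passed (adjusted p 0.0575).

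In KO hearts none of the 6 values passed between the ages, where 7.68% of all genes did. Alas2 alone had an unadjusted p under 0.05 in edgeR, and DESeq2 called 0 of 6 as well. Alpha globin stood at 310, 386, 440 and 520 CPM in KO_Young_27, KO_Young_31, KO_Young_38 and KO_Young_53, and at 455, 409, 413 and 851 CPM in KO_Aged_114, KO_Aged_115, KO_Aged_122 and KO_Aged_125. Of the aged hearts 3 lay inside the young range and 1 far above it. The log2 difference was 0.36 (95% interval -0.09 to 0.82; edgeR adjusted p 0.353). Beta globin stood at 298, 443, 482 and 543 CPM in young and 560, 474, 502 and 957 CPM in aged KO hearts. KO_Aged_125 was again the high one, and the log2 difference was 0.50 (95% interval -0.02 to 1.01; edgeR adjusted p 0.248).

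None of the other members passed in KO hearts either. Alas2 stood at 8.49, 11.6, 13.4 and 14.9 CPM in young and 17.7, 14.3, 13.9 and 28.9 CPM in aged KO hearts. Its log2 difference was 0.62 (95% interval 0.09 to 1.16; edgeR adjusted p 0.155), and the groups overlapped. Slc4a1 had 4, 8, 7 and 4 counts in young and 4, 7, 12 and 12 counts in aged KO hearts, a count ratio of 1.52 with an exact interval of 0.874 to 2.70. Bpgm stood at 21.9, 24.5, 25.0 and 26.3 CPM in young and 24.3, 23.0, 24.2 and 32.6 CPM in aged KO hearts. Here too KO_Aged_125 was the only heart outside the young range, and the log2 difference was 0.09 (edgeR adjusted p 0.701). Fech stood at 194, 161, 203 and 182 CPM in young and 184, 153, 165 and 167 CPM in aged KO hearts, at a log2 difference of -0.15 (95% interval -0.36 to 0.07; edgeR adjusted p 0.445).

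**Figure D2:**
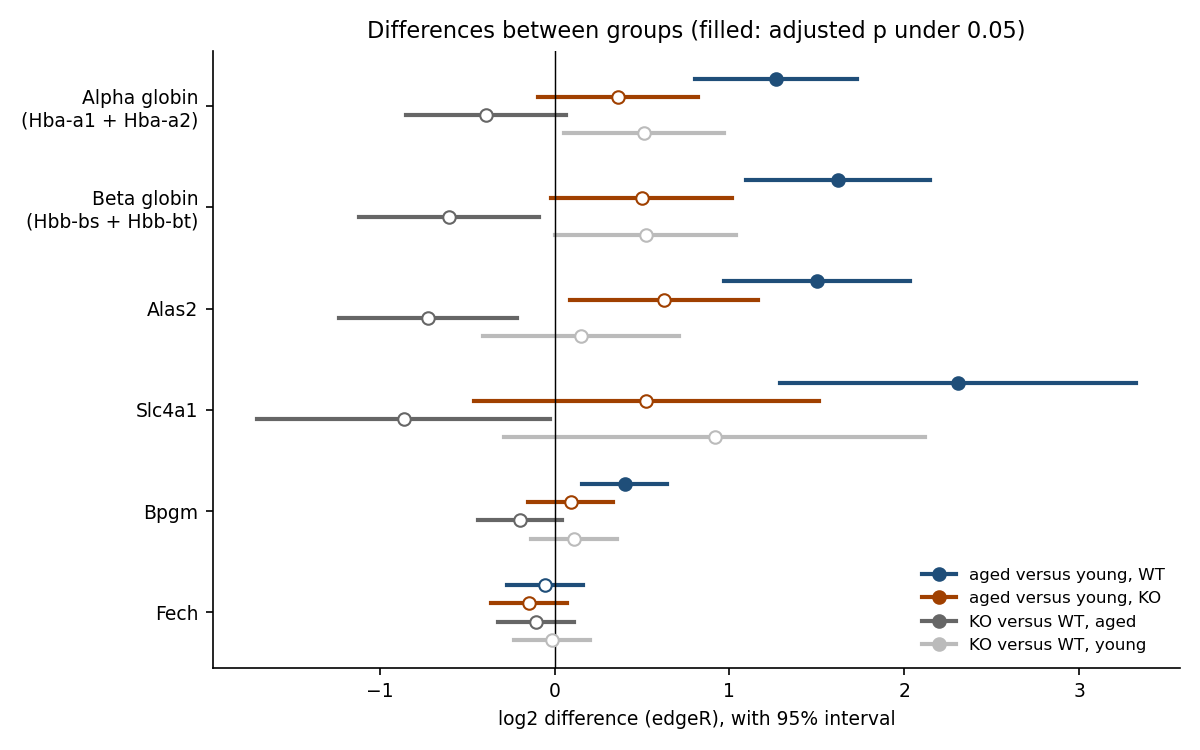
Log2 differences of the 6 values in 4 comparisons of groups (points) with 95% intervals from edgeR (lines); filled points have an adjusted p under 0.05. The only filled points are 5 of the 6 for aged against young WT hearts.

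The comparison of KO with WT hearts asks what loss of Armh4 did at each age. At 25 months 0 of 6 values passed, against 1.11% of all genes, and DESeq2 also called 0. All 6 estimates were lower in KO, and 3 of them (beta globin, Alas2 and Slc4a1) had an unadjusted p under 0.05 in edgeR. The log2 difference of KO from WT was -0.39 for alpha globin (95% interval -0.85 to 0.06; edgeR adjusted p 0.542) and -0.60 for beta globin (-1.12 to -0.09; adjusted p 0.348). It was -0.73 for Alas2 (-1.24 to -0.22; edgeR adjusted p 0.200) and -0.86 for Slc4a1 (-1.70 to -0.02; adjusted p 0.432). It was -0.20 for Bpgm and -0.11 for Fech. The groups overlapped in all 6.

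A single heart at either end decided the call of 1 value. KO_Aged_125 was highest of its group and WT_Aged_4 lowest of its group for both globins, Alas2 and Bpgm. Without KO_Aged_125 the Alas2 difference between aged KO and WT hearts was -1.01 (edgeR adjusted p 0.0440), and without WT_Aged_4 it was -0.94 (adjusted p 0.0384), so Alas2 alone of the 6 values then passed. Leaving out either of these hearts moves the groups apart. In 14 of 16 fits with a heart left out Alas2 did not pass, with edgeR adjusted p up to 0.509.

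At 8 weeks 0 of 6 values passed either, against 0.322% of all genes. DESeq2 called 0 of 5 and gave no adjusted p for Slc4a1. Alpha and beta globin had unadjusted p values under 0.05 in edgeR, this time with KO higher: the log2 difference was 0.51 for alpha globin (95% interval 0.05 to 0.97; edgeR adjusted p 0.390) and 0.52 for beta globin (0.00 to 1.04; adjusted p 0.440). KO_Young_27 lay inside the WT range for both sums and the other 3 KO hearts above it. Slc4a1 was the only value whose young groups did not overlap, at 4 to 8 counts in KO and 3 in each WT heart, a count ratio of 1.93 with an exact interval of 0.921 to 4.25. Alas2 differed by 0.15, Bpgm by 0.11 and Fech by -0.01 on the log2 scale.

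Whether ageing differed between the genotypes was tested directly, by subtracting the log2 change with age in WT hearts from the one in KO hearts. None of the 6 values passed, against 0.583% of all genes; DESeq2 called 0, and 4 of 6 had an unadjusted p under 0.05 in edgeR. This difference was -0.91 ± 0.31 (SE) for alpha globin (edgeR adjusted p 0.223) and -1.12 ± 0.35 for beta globin (adjusted p 0.164). It was -0.88 ± 0.36 for Alas2 and -1.78 ± 0.70 for Slc4a1 (edgeR adjusted p 0.321 and 0.299), -0.31 ± 0.16 for Bpgm and -0.09 ± 0.15 for Fech. A call in WT and none in KO hearts therefore does not show that the genotypes aged differently in these genes. Without KO_Aged_125 alpha globin passed, at -1.23 (edgeR adjusted p 0.0253). In 15 of 16 fits with a heart left out alpha globin did not pass, with edgeR adjusted p up to 0.401.

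Proportions between members were compared heart by heart. No difference passed after adjustment, which 4 hearts against 4 could hardly do over this many tests. The ratio of alpha to beta counts was 0.947 ± 0.038 in young WT and 0.767 ± 0.120 in aged WT hearts, and 0.945 ± 0.073 in young KO and 0.847 ± 0.036 in aged KO hearts (SD, n = 4). All aged WT hearts were below all young ones, with WT_Aged_1 lowest at 0.599 (exact permutation p 0.0286, the smallest that 4 hearts against 4 can give). The share of Hba-a2 in alpha counts also separated WT ages, at 40.4% ± 1.19 in young and 38.5% ± 0.691 in aged hearts, within the doubt about the split of copies. The share of Hbb-bt in beta counts overlapped in every comparison, with group means from 14.9% to 16.7%.

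Alas2 overlapped between the ages in WT hearts when set against the globins. It had 18.2 ± 1.08 counts per 1000 globin counts in young and 18.7 ± 2.85 in aged WT hearts, and 14.1 ± 0.249 in young and 16.2 ± 0.936 in aged KO hearts (SD, n = 4). Every young KO heart was below every young WT heart, and below every aged KO heart. Bpgm per 1000 globin counts was lower in aged than in young WT hearts, at 19.0 ± 4.14 and 38.2 ± 3.87, and Fech likewise, at 119.5 ± 45.0 and 321.6 ± 81.8 (SD, n = 4), with no overlap in either. Over the 28 ratio tests (7 ratios in 4 comparisons) none passed by exact permutation test after Benjamini-Hochberg adjustment, and the smallest adjusted p was 0.133. Full separation of 4 hearts from 4 gives an exact permutation p of only 0.0286. Over 28 tests an adjusted p under 0.05 was therefore out of reach unless most ratios separated at once. The adjusted test thus cannot decide whether these separations are differences.

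**Figure D3:**
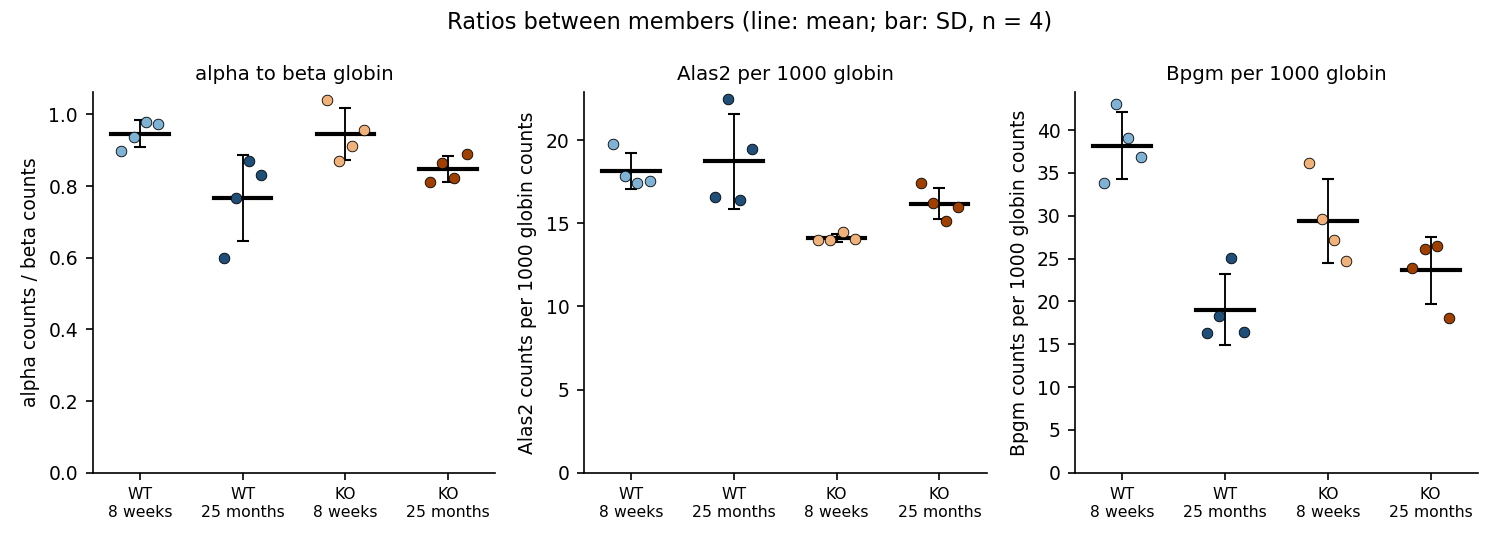
Alpha to beta globin counts, and Alas2 and Bpgm counts per 1000 globin counts, in each of 16 hearts (points, 4 groups), with group mean (line) and SD (bar). The alpha to beta ratio and the Bpgm ratio are lower in all aged than in all young WT hearts, and the Alas2 ratio is lowest in young KO hearts.

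Within groups, hearts with more globin also had more Alas2 and Bpgm. After each group's mean was subtracted, log2 CPM of Alas2 followed that of the 4 summed globins over 16 hearts with Pearson's r of 0.960 and Spearman's rho of 0.965 (exact permutation within groups, adjusted over 4 relations, p 3.01e-05 and 6.03e-05). Bpgm did so with r of 0.947 and rho of 0.909 (exact permutation, adjusted p 2.41e-05 and 6.03e-05). With WT_Aged_4 and KO_Aged_125 left out, the hearts farthest from the median, r was 0.928 for Alas2 and 0.905 for Bpgm. Slc4a1 gave r of 0.448 and rho of 0.321 (exact permutation, adjusted p 0.281 and 0.425), and r of 0.0696 without those hearts. Fech gave r of -0.253 and rho of -0.182 (exact permutation, adjusted p 0.363 and 0.511), and -0.364 without them. Fech, which nearly all cells use, thus had no detectable relation to the globins at this number of hearts.

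Of all tested genes outside the globins, none had a higher r with the summed globins than Alas2 and Bpgm. The most alike of the genes that are not members was Tent5c, a poly(A) polymerase gene active in late red cell precursors, at r of 0.919 over 16 hearts. Isy1 followed at 0.878 and Fbxo36 at 0.852, and the next 7 genes lay between 0.783 and 0.835. These are the highest of many coefficients and are given as a description.

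**Figure D4:**
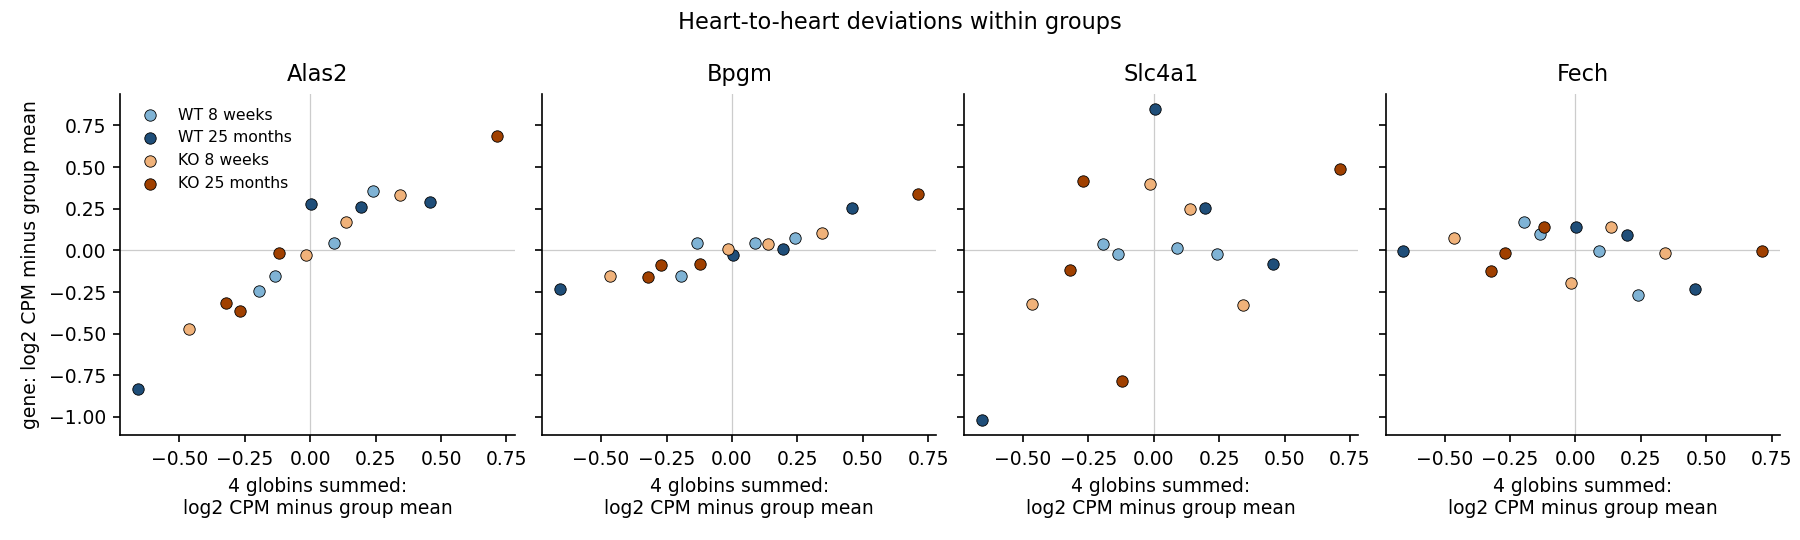
Deviation of each heart's log2 CPM from its group mean, for Alas2, Bpgm, Slc4a1 and Fech (vertical) against the 4 summed globins (horizontal), 16 hearts coloured by group. Alas2 and Bpgm lie along a line (r of 0.960 and 0.947), and Slc4a1 and Fech scatter.

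Other red cell genes moved in part. Of 12 tested red cell enzyme and late erythroid genes, 3 rose and 1 fell with age in WT hearts; the share called over all genes was 11.9% higher and 10% lower. Tent5c rose by 1.59 ± 0.29 on the log2 scale (SE; edgeR adjusted p 0.000671). Mkrn1 rose by 0.32, and Hk1, a hexokinase, fell by 0.48. The median of the 12 was 0.14, against -0.01 over all genes. Of 11 tested membrane and skeleton genes, 3 rose and 2 fell, with a median of -0.03. Rhd, a Rhesus antigen gene, rose by 0.92 and Tspan33 by 1.50 (edgeR adjusted p 5.56e-05 and 0.00032). Tspan33 had only 9 to 16 counts per young WT heart, and a gene this low can enter the test through groups where it is higher. Aqp1, a water channel, fell by 1.63, and Ank1, an ankyrin, fell by 0.38. Which cells of the heart the transcripts of these listed genes came from was not tested, for those that rose or for those that fell.

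No haem synthesis gene outside the members was called higher. Of 7 tested, 0 rose and 1 fell in aged WT hearts, with a median of -0.20, where 11.9% of all genes were called higher and 10% lower. The gene that fell was Alas1, the ubiquitous counterpart of Alas2, by 0.88 ± 0.16 on the log2 scale (SE; edgeR adjusted p 0.000778). Uros and Cpox had log2 differences of -0.21 and -0.25 and did not pass. Alas1 stood at 372 ± 35.9 CPM in young WT, 202 ± 54.2 in aged WT, 215 ± 18.2 in young KO and 213 ± 51.0 in aged KO hearts (SD, n = 4). It was lower in young KO than in young WT hearts by a log2 value of -0.79 ± 0.16 (SE; edgeR adjusted p 0.0499), at the edge of the threshold; with each of 16 hearts left out in turn, 12 fits lost this call, with adjusted p up to 0.236. Alas1 and Alas2 thus went in opposite directions with age in WT hearts.

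Of 17 tested genes of haem and iron handling, 8 rose and 2 fell with age in WT hearts, with a median of 0.25. Over all genes 11.9% were called higher and 10% lower in that comparison. Trf (transferrin) rose by 0.83, Ftl1 (ferritin light chain) by 0.69, Hmox1 (the haem-degrading oxygenase) by 1.38 and Hp (haptoglobin, which binds free haemoglobin) by 4.73 on the log2 scale, with edgeR adjusted p of 5.16e-05, 0.000275, 0.000291 and 0.000313. Hp had only 4 to 24 counts per young WT heart, and such a gene can enter the test through the group where it is high, which favours a difference. It ranged from 4.74 to 56.1 CPM over the aged WT hearts. Its log2 change was 3.59 without WT_Aged_1, the highest, and 5.73 without WT_Young_29 (edgeR adjusted p 0.000357 and 0.000551). Tfrc, the transferrin receptor, fell by 1.79 ± 0.31 (SE; edgeR adjusted p 0.00043), and it was also lower in young KO than in young WT hearts, by a log2 value of -1.72 ± 0.31 (SE; adjusted p 0.0320). Without any single one of the 8 young hearts that genotype difference was -1.80 to -1.62 and did not pass, with edgeR adjusted p up to 0.155. Tfrc was named after its value was seen. It stood at 193 to 257 CPM in young WT hearts and at 31.4 to 123 CPM in the 12 other hearts. In aged KO hearts 4 of the 17 rose and 1 fell, where 7.68% of all genes were called in either direction. Of these genes, Hmox1 and Trf alone kept their calls with each heart left out in turn. With age in KO hearts the membrane list had 1 call (Aqp1, which fell by 1.21), and the enzyme and haem synthesis lists had 0. Between young KO and young WT hearts, where 0.322% of all genes were called, Alas1 and Tfrc were the only calls in these lists. None of the red cell, haem and iron lists had a call between aged KO and aged WT hearts or in the genotype difference of ageing. There 1.11% and 0.583% of all genes were called, and at such shares no call says little about lists this short.

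Of 3 tested erythroid regulators, Epor, the erythropoietin receptor, rose with age by 1.60 ± 0.26 in WT and 2.03 ± 0.26 in KO hearts (SE; edgeR adjusted p 0.000231 and 9.56e-05). Epor had only 8 to 13 counts per young heart in either genotype. Such a gene can enter the test through the groups where it is high, which favours a difference. Zfpm1 fell by 0.63 in WT hearts and by 0.35 in KO hearts, where 13 of 16 fits with a heart left out lost the call, and Tal1 had a log2 difference of -0.01 with age in WT hearts. Unlike the members, Epor was thus called in both genotypes, though on few counts in young hearts. Of the other globins, 2 were tested, and neither Mb (myoglobin, the oxygen store of heart muscle) nor Cygb passed in WT hearts, at log2 differences of -0.01 and -0.00. Cygb rose by 0.42 with age in KO hearts (edgeR adjusted p 0.00712).

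Markers of immature red cell precursors were near absent. Klf1 had 0 to 4 counts per heart, Gata1 0 to 4, Rhag 0 to 2 and Ermap 1 to 11. Of that list of 7 only Tfrc and Epor were tested, both made by other cells too, and its summed level of 36.4 to 258 CPM was mostly Tfrc. Rhag and Gata1 were at 0 in all young hearts of both genotypes.

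Some markers of other blood cells also rose in aged WT hearts, where 11.9% of all genes were called higher. Most of these markers are at few counts, and such a gene can enter the test through the group where it is high, which favours a difference. Of 11 platelet markers 4 were tested and 3 rose (Pf4, Ppbp and Itga2b) while Gp1ba did not pass; the Itga2b call was lost without WT_Aged_12 (edgeR adjusted p 0.0856), and without that heart the log2 change of Ppbp was 1.88 in place of 2.65. The summed platelet level over all 11 was 19.6 to 23.0 CPM in young WT, 25.2 to 54.0 in aged WT, 20.4 to 24.1 in young KO and 28.1 to 31.9 in aged KO hearts. Of 11 neutrophil markers 6 were tested and 4 rose (S100a8, S100a9, Csf3r and Cxcr2), and the sum of the 11 was 5.04 to 7.002, 27.1 to 66.6, 4.20 to 8.31 and 11.3 to 22.0 CPM in the same groups. With age in KO hearts, where no globin passed, Pf4, S100a9 and Csf3r rose (edgeR adjusted p 0.00392, 0.0225 and 0.0259), and with single hearts left out, KO_Aged_125 among them, the calls of S100a9 and Csf3r were lost in 3 and 5 of 16 fits. Between the genotypes at 25 months, where 1.11% of all genes were called, 3 of the 6 neutrophil markers were lower in KO (S100a8, S100a9 and Csf3r), of which S100a9 alone kept its call with each heart left out in turn. Of 6 listed T cell markers 3 were tested, and Cd8a and Cd3g rose in aged WT hearts from 2 to 5 counts per young heart, while Cd4 did not pass. Cd8a was also lower in aged KO than in aged WT hearts, a call lost without WT_Aged_4, KO_Aged_115 or KO_Aged_122. No B cell marker was tested. WT_Aged_4, the aged WT heart lowest in globin, had the lowest platelet sum of its group, and KO_Aged_125, the aged KO heart highest in globin, had the highest platelet and neutrophil sums of its group. Other orders differed: WT_Aged_4 had a neutrophil sum of 29.2 CPM, above the 27.1 of WT_Aged_5, and the highest T cell sum of its group (12.0 CPM), WT_Aged_12, below WT_Aged_1 and WT_Aged_5 in both globin sums, had the highest platelet sum, and KO_Aged_125 had a T cell sum of 3.88 CPM, below the 4.66 of KO_Aged_114. The summed cardiomyocyte level had a median of 84670 CPM in young and 68131 CPM in aged WT hearts. These groups overlapped: WT_Aged_5 stood at 82662 CPM, above WT_Young_29 at 82205 CPM. WT_Aged_1 was lowest at 66173 CPM, and WT_Aged_4, the aged WT heart lowest in globin, stood at 68421 CPM. Of 8 cardiomyocyte markers 3 (Myh6, Actc1 and Ttn) were called lower, against 10% of all genes. Of 6 endothelial markers 2 (Cdh5 and Tie1) were called lower, but 4 of the 6 estimates were positive, with a median log2 change of 0.05. In KO hearts the cardiomyocyte median was 85985 CPM in young and 73492 CPM in aged hearts. There 1 of 8 was called lower, and 7.68% of all genes were called in either direction. Of the WT calls, that of Actc1 alone was kept with each heart left out in turn. The part of cell content, of blood or of muscle, in the globin differences was not tested.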

How the data were processed

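The expected counts, partly fractional, and the FPKM values (scaled by the authors to library size and gene length) were deposited as tables for all 16 hearts. HISAT, Bowtie2 and the build GRCm39 are named, without role, per the submitters' processing notes; the sources used here name no counting program. Counts of Hba-a1 and Hba-a2, and of Hbb-bs and Hbb-bt, were summed, and all counts rounded. One edgeR 4.0.16 quasi-likelihood fit (R 4.3.3; filterByExpr, TMM) held all 16 hearts in 4 groups, with 12 residual degrees of freedom and 13371 genes; p-values were adjusted over all of them by Benjamini-Hochberg. CPM are counts over TMM-scaled library sizes. For ratios, exact permutation tests (two-sided) were run in SciPy 1.17.1. Total counts were 11456503 to 13298660 per heart. No 2 hearts of a group agreed within sampling noise (lowest chi-square per degree of freedom 3.67). On simulated data for aged against young WT hearts (13371 genes), 90% of 100 genes changed 2-fold and 99% of 100 changed 4-fold were called, with 14 other genes. The simulation gave all groups the same spread. In the data, chi-square per degree of freedom reached 41.3 among aged and 17.3 among young WT hearts, so these rates may not hold there.

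The members, lists and tests were chosen with earlier results of these data known. From each other list the rule names up to 4 genes in order of adjusted p in aged against young WT hearts, and, as most alike, the 10 genes with the highest r. Alternatives were DESeq2 1.42.0, limma 3.58.1 on log2(FPKM + 1) and log2(FPKM + 0.1), other scalings and filters, fits of only the groups compared, a robust fit, and hearts left out. The default fit was kept, as planned, after call counts of both fits had been seen. Promoters of Slc4a1 and Fech were not analysed here, and values of some listed genes are not reported here.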

Additional observations from a re-analysis of the deposited data

Results flagged for a closer look

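Of 52 groups of 4 hearts examined (units and ratios), 6 held a heart whose gap to the nearest of the others exceeded 0.829 of the group's range; chance gives about 1 in 20 such groups, and the groups share hearts and counts. KO_Aged_125 stood apart in 3 of them: at 851 CPM of alpha globin (the others 409 to 455), at 32.6 CPM of Bpgm (23.0 to 24.3), and at 92.3 Fech counts per 1000 globin counts (174 to 181). WT_Aged_4 stood apart for Alas2, at 16.5 CPM against 35.3 to 36.1. WT_Young_39 had 20.2 CPM of Bpgm against 23.2 to 23.7. KO_Young_38 had 14.5 Alas2 counts per 1000 globin counts against 13.98 to 14.0, a narrow group.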

How the results depend on the processing

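Over 785 values of single units under alternatives, 775 kept their side of the threshold, 9 passed newly, 1 was lost and 0 reversed a call; all 252 ratio values stayed on their side, although 4 hearts against 3 cannot go below an exact permutation p of 0.0571. DESeq2, the other scalings and filters, the limma fits, the fits of only the groups compared and the robust fit changed no call. Slc4a1 rose by 2.31 with age in WT hearts in the counts but by 0.29 on the log2(FPKM + 1) scale, which compresses low genes, and it got no value under a filter of 1 CPM in 4 libraries or, in 3 of the 4 comparisons, in fits of only the groups compared. With 1 heart left out, the number of the 6 values called ran from 0 to 1 between aged KO and WT hearts, and from 0 to 1 for the genotype difference of ageing, where alpha globin ran from -1.23 to -0.78.

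A fit without both KO_Aged_125 and WT_Aged_4 was added after seeing the data. These hearts were picked by the very values then tested, and leaving out each one moves the groups apart, so the calls it gives are no support for a difference. It called 3 of 6 values between aged KO and WT hearts (alpha globin -0.87, beta globin -1.08 and Alas2 -1.22 on the log2 scale; edgeR adjusted p 0.0153, 0.0153 and 0.00207) and 3 of 6 for the genotype difference of ageing (-1.38, -1.60 and -1.38; adjusted p 0.0038, 0.00725 and 0.0119). No paired analysis was possible because the groups share no animal numbers. Slc4a1, at 3 to 27 counts, is limited by depth; the other values are limited by the spread between 4 hearts.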
